A study of Mus musculus with 8 samples.

Results

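Collagen genes encode the chains of the most abundant proteins of the extracellular matrix, and the mouse genome holds them as a family of many genes. They were taken here as every gene whose symbol had the form Col, a number, the letter a and a number (such as Col4a1), which gave 44 of the 22873 genes of the count tables. They were followed in single nuclei of the mouse iris, in 10 cell types and 3 states of the pupil. Irises came from WT female albino mice of 6 to 8 weeks, and each library pooled 5 or 6 irises. In the dilated state (2 libraries), 5% phenylephrine and 1% cyclopentolate eye drops were given hourly in the dark over 6.5 h; in the constricted state (3 libraries), 5% pilocarpine was given hourly in the light over the same time; the untreated state had 3 libraries. Drug and lighting changed together, so their parts cannot be told apart.

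Collagens form trimers of chains. Fibrillar collagens build the cables of connective tissue, type IV collagens build the sheet of the basement membrane that underlies epithelia and wraps muscle cells, and the FACIT, beaded filament, short-chain and transmembrane classes attach to, link or sit beside these networks. Type IV chains are encoded in head-to-head gene pairs, Col4a1 with Col4a2, Col4a3 with Col4a4 and Col4a5 with Col4a6, and assemble into different trimers. The pupil dilator is a sheet of contractile cells at the back of the iris that is continuous with the pigment epithelium (iris PE), and the sphincter is a ring of smooth muscle at the pupil margin.

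The 8 libraries held 34357 nuclei and between 5189437 and 25136427 UMIs (unique molecules counted) each, and collagen genes took 0.284% of all UMIs. Cell types were those the authors assigned to each nucleus: dilator muscle, iris PE, stroma 1, stroma 2, sphincter 1, sphincter 2, ciliary body (CB), ciliary body epithelium (CBE), leukocytes and endothelial cells. The lists of marker genes chosen here were present in every labelled type, but their sums did not always single it out. The dilator list shares Myh11 and Acta2 with the sphincter list, and a sum gives most weight to its most abundant gene. The sums therefore do not test the authors' labels. In untreated nuclei the CBE list summed to 811 CPM (UMIs of a gene per 1000000 UMIs of the cell type in a library) in CBE and to 6364 CPM in CB, and the dilator list to 3269 CPM in dilator muscle and 4285 CPM in sphincter 1. Libraries untreated 1 and dilated 1 shared 63 cell barcodes, 59 of them with the same cell type, which was 4.26% of the nuclei of untreated 1. Leaving out the 400 nuclei with a barcode found in more than 1 library removed 0 of the 37 calls described here. A fall in a gene's level in these sums can come from fewer transcripts per nucleus or from other nuclei within the labelled type, which cannot be told apart.

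The 3 type IV gene pairs are arranged 5′ end to 5′ end, and the stretches where the 2 genes of a pair meet are shown first because the called members of a pair moved in the same direction in dilator muscle and in stroma 2. They were cut from RefSeq promoter sequence of GRCm38.p6, in which 35 of the 44 genes had an entry, and gene positions were those of GENCODE for the same build, mm10. Col4a1 (chr8:11198423-11312826, minus strand) and Col4a2 (chr8:11312805-11449287, plus strand) overlap at their 5′ ends by 22 bases. Col4a4 (chr1:82448423-82586849, minus strand) and Col4a3 (chr1:82586921-82722059, plus strand) start 71 bases apart. Col4a6 (chrX:141165403-141474076, minus strand) and Col4a5 (chrX:141475385-141689234, plus strand) start 1308 bases apart, and the bases upstream of each are given. Capitals mark matches, on either strand, to 6 motifs: the GC box GGGCGG, the CCAAT box CCAAT, the TATA box TATAAA, the EGR motif GCGNGGGCG, the AP-1 motif TGANTCA and the CArG box.
Col4a1 and Col4a2 overlap, chr8:11312805-11312826, plus strand: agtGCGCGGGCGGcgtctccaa
Col4a3 and Col4a4 gap, chr1:82586850-82586920, minus strand: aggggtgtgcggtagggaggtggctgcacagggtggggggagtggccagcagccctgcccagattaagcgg
Col4a5 upstream, chrX:141475169-141475384, plus strand: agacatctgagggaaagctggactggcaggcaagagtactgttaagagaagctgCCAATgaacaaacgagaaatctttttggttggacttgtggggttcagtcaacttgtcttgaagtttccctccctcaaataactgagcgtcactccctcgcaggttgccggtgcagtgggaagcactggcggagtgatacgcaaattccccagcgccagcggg
Col4a6 upstream, chrX:141474077-141474326, minus strand: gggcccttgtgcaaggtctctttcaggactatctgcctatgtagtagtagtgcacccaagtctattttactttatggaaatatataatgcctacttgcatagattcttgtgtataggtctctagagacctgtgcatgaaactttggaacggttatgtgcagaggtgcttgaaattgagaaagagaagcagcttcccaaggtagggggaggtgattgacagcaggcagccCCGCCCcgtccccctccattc

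The overlap of Col4a1 and Col4a2 held 1 match to the EGR motif and 1 to the GC box, and these matches share bases. The stretch between Col4a3 and Col4a4 held no match to any of the 6 motifs. Of 32817 promoter windows of 300 bases in the table, 5.56% held the EGR motif, 35.6% the GC box, 37.4% the CCAAT box, 13.6% the TATA box, 7.81% the AP-1 motif and 1.63% the CArG box. Among the 38 windows of collagen genes, 3 held the EGR motif, those of Col4a1, Col4a2 and Col8a1, and the windows of Col4a1 and Col4a2 overlap. Of the same 38, 23 held the GC box, 13 the CCAAT box, 5 the TATA box, 1 the AP-1 motif and 1 the CArG box. A match is a run of letters and says nothing about binding.

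In untreated irises, 17 of the 44 collagen genes were highest in stroma 2, 8 in CBE, 5 in endothelial cells, 4 each in CB and sphincter 2, 2 in sphincter 1, and 1 each in dilator muscle, iris PE, stroma 1 and leukocytes. Some of these leaders rested on few molecules, such as Col11a2 in endothelial cells and Col6a4 in CB, each on 1 UMI. Of the 26 genes at 50 CPM or more in a type, 10 led in stroma 2, 5 in CBE, 3 in endothelial cells and 2 each in CB and sphincter 2. Since the cell types were drawn from the same counts, these levels are a description without a test. Summed over all 44 genes, collagen UMIs were 5520 CPM ± 316 (SD, n = 3 libraries) in stroma 2, and the lowest mean was 599 CPM in stroma 1. The heat map of untreated levels shows all genes and cell types.

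**Figure D1:**
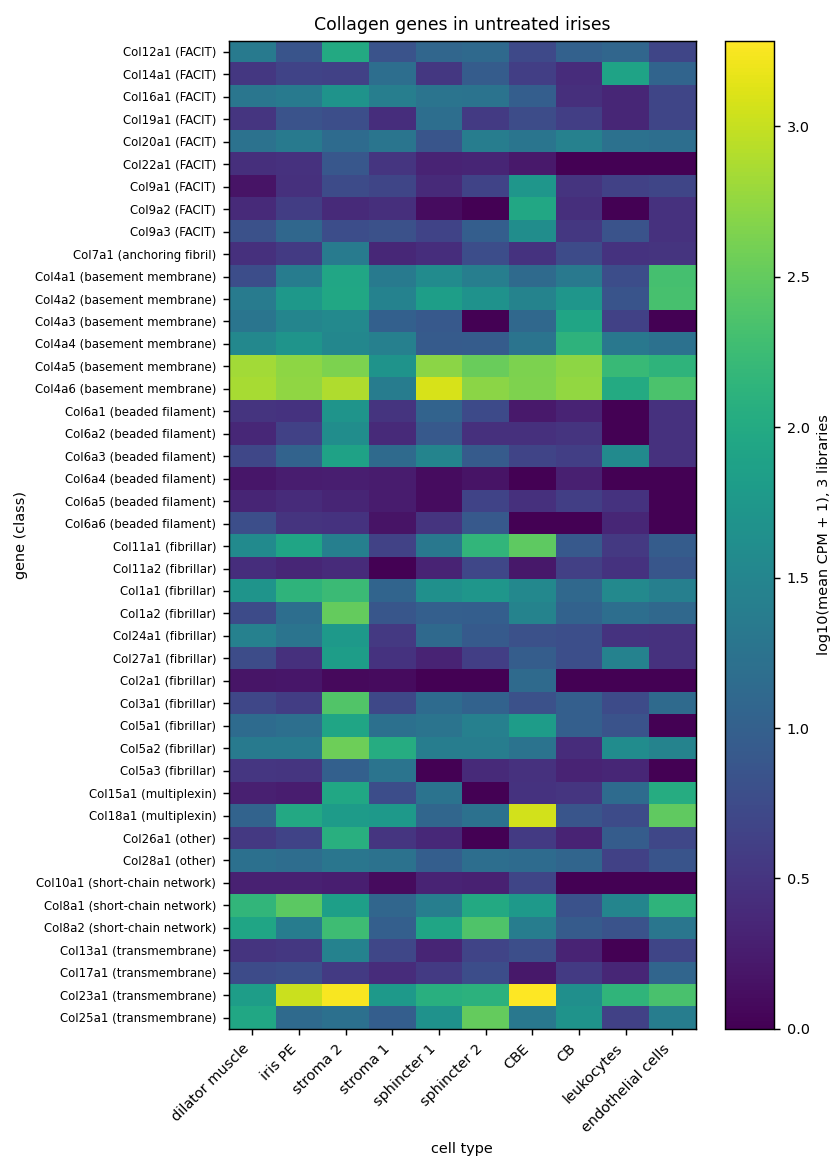
Level of each of the 44 collagen genes (rows, with class) in each of the 10 cell types (columns) of untreated irises, as log10 of the mean CPM over 3 libraries plus 1. Col4a5 and Col4a6 were bright in most types, Col23a1 in stroma 2, CBE and iris PE, and the fibrillar genes Col1a2, Col3a1 and Col5a2 mainly in stroma 2.

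The fibrillar genes were mostly stromal. Col1a2, a chain of type I collagen, was at 355, 299 and 295 CPM in stroma 2 of the 3 untreated libraries and at 28.2 CPM on average in CBE, the next type. Col3a1 was at 313, 212 and 209 CPM in stroma 2, 18.9-fold above sphincter 1, the next type. Col5a2, a regulator of fibril diameter, was at 341, 369 and 372 CPM in stroma 2 and at 108 CPM in stroma 1, so its leading type stood 3.34-fold above the next and the libraries of the 2 types did not overlap.

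Col1a1, the partner of Col1a2 in type I collagen, did not follow it. It was at 234, 144 and 134 CPM in stroma 2 and at 192, 109 and 104 CPM in iris PE. These ranges overlapped, but within each library stroma 2 was the higher. The UMIs of Col1a1 per UMI of Col1a2 were 0.492 in stroma 2, 8.23 in iris PE and 11.2 in dilator muscle (652 against 58 UMIs). Col11a1, a fibrillar chain of cartilage and eye, was highest in CBE, at 281, 255 and 345 CPM, followed by sphincter 2 at 143 CPM and iris PE at 84.0 CPM. Col27a1, Col24a1 and Col5a1 led in stroma 2 at 67.0, 59.6 and 84.4 CPM. For Col5a1 the CBE libraries, at 64.6 CPM on average, overlapped those of stroma 2. For Col27a1 the leukocyte libraries did, at 27.7 CPM on average and 68.1 CPM in untreated 3.

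Among the type IV genes, Col4a5 was highest in dilator muscle, at 656, 676 and 669 CPM, above iris PE at 532 CPM, but over all 8 libraries CB led, at 596 CPM against 581 CPM in dilator muscle. Col4a6 was highest in sphincter 1, at 1586, 1024 and 1059 CPM, above stroma 2 at 771 CPM and dilator muscle at 709 CPM. Col4a1 and Col4a2 were highest in endothelial cells, at 203 and 211 CPM, with stroma 2 next at 85.9 and 90.2 CPM. For Col4a1 the endothelial and stroma 2 ranges overlapped, but within each library endothelial cells were the higher. Col4a1 was at its lowest in dilator muscle, 5.03 CPM. Col4a3 and Col4a4 led in CB, at 84.9 and 130 CPM, with a wide spread (124, 83.1 and 47.3 CPM for Col4a3).

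The other classes had leaders outside the stroma as well. Col18a1, a multiplexin of basement membranes whose cleaved end is endostatin, was at 1078, 1095 and 1285 CPM in CBE, 3.81-fold above endothelial cells. The 3 chains of type IX collagen, a FACIT known from cartilage and vitreous, were highest in CBE, and Col9a2 was at 99.6, 87.0 and 93.6 CPM there against 2.98 CPM in iris PE. Col23a1, a transmembrane collagen, reached 1923 CPM in CBE and 1768 CPM in stroma 2, and these 2 types overlapped. Col25a1, another transmembrane member, was at 293, 356 and 317 CPM in sphincter 2, followed by dilator muscle at 88.4 CPM. Col8a1, a short-chain network collagen, led in iris PE at 280, 265 and 305 CPM, and its partner Col8a2 in sphincter 2 at 312, 204 and 194 CPM, where stroma 2 at 180 CPM overlapped it. Col15a1 was at 108 CPM in endothelial cells and 88.2 CPM in stroma 2, which overlapped. The remaining leaders at 50 CPM or more were Col12a1 (99.2 CPM), Col26a1 (116 CPM) and Col6a3 (2.14-fold above leukocytes, which overlapped it) in stroma 2, Col9a1 in CBE (51.6 CPM) and Col14a1 in leukocytes (78.7 CPM). The other 18 of the 44 genes stayed under 50 CPM in every cell type, and Col10a1, Col2a1, Col6a4 and Col6a5 had 51 to 130 UMIs over all libraries and passed the filter on low counts in no cell type.

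Long genes collect more reads in nuclei, so genes were ranked against each other only per kilobase of gene. On that scale Col1a1 led in stroma 2 (10.2 CPM per kb) and iris PE (8.04 CPM per kb), Col18a1 in CBE (10.1 CPM per kb) and endothelial cells (2.65 CPM per kb), Col8a2 in sphincter 2 (8.59 CPM per kb), and Col4a6 in sphincter 1 (3.96 CPM per kb). Col4a5 led in dilator muscle (3.12 CPM per kb) and CB (2.45 CPM per kb), Col5a2 in stroma 1 (0.838 CPM per kb) and Col1a1 in leukocytes (2.06 CPM per kb, on 10 UMIs). Col20a1, a FACIT, was also among the 3 highest genes in stroma 1 (0.568 CPM per kb) and in leukocytes (0.491 CPM per kb, on 4 UMIs). Division by the full gene length raises short genes, and how far these counts grow with length was not tested. In iris PE, Col1a1 (16.8 kb) led per kb at 135 CPM, while Col23a1 (294 kb) was at 1035 CPM.

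Dilation was compared with the untreated state to ask which collagen genes change when the pupil is held open. Of 170 pairs of collagen gene and cell type tested, 10 rose and 10 fell, in 6 of the 10 cell types and with 14 different genes. A gene was called when its absolute log2 fold change was over 0.6 and its adjusted p under 0.05 in edgeR's two-sided quasi-likelihood test with Benjamini-Hochberg adjustment over all genes tested in that cell type. In dilator muscle 8 of the 37 collagen genes tested were called, where 13.3% of all genes were. In the others the calls were 5 of 35 in stroma 2 (background 1.73%), 3 of 11 in sphincter 2 (2.87%), 2 of 12 in sphincter 1 (1.95%), 1 of 14 in stroma 1 (1.17%) and 1 of 29 in iris PE (0.595%). None was called in CBE, of 14 (0.0122%), CB, of 9 (0.0665%), leukocytes, of 3 (1.32%) or endothelial cells, of 6 (0%). In those 4 types 1, 2, 0 and 2 collagen genes had an unadjusted p under 0.05. Over all genes these were 353 of 8166 in CBE, 393 of 7522 in CB, 339 of 3027 in leukocytes and 90 of 1352 in endothelial cells. The median log2 fold change was 0.01 over the collagen genes and 0.02 over all genes in dilator muscle. In stroma 2 these medians were 0.10 and 0.01. The dilator levels given as CPM carried a shift that edgeR's scaling removed: the median gene was 0.13 lower in dilated nuclei on the log2 CPM scale.

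In dilator muscle Col4a1 and Col4a2 rose and Col4a5 and Col4a6 fell. Col4a1 was at 5.61, 5.21 and 4.27 CPM in the untreated libraries, 8.52, 7.09 and 8.53 CPM in the constricted and 66.0 and 46.7 CPM in the dilated libraries. Both dilated libraries lay above all others, and the gene rose by 3.68 ± 0.21 (log2, SE; adjusted p = 9.13e-07), a 12.9-fold change. Col4a2 was at 31.2, 14.5 and 20.9 CPM untreated, 39.3, 25.7 and 24.6 CPM constricted and 153 and 90.4 CPM dilated. It rose by 2.73 ± 0.27 (adjusted p = 5.42e-05), 6.65-fold, again without overlap.

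Col4a5 was at 656, 676 and 669 CPM untreated, 587, 791 and 618 CPM constricted and 352 and 299 CPM dilated. It fell by 0.85 ± 0.16 on the log2 scale (adjusted p = 0.00416). Col4a6 was at 741, 660 and 726 CPM untreated, 704, 819 and 634 CPM constricted and 407 and 373 CPM dilated, and fell by 0.67 ± 0.15 (adjusted p = 0.00902). For both genes the dilated libraries lay below every other library. The fall of Col4a6 missed the threshold without dilated 1 (adjusted p = 0.0562) and without dilated 2 (0.0555). Col4a3 and Col4a4, the third pair, had log2 fold changes of -0.74 ± 0.33 and -0.94 ± 0.37 that were not called (adjusted p = 0.162 and 0.114). The share of Col4a1 and Col4a2 among type IV UMIs, which are not scaled for gene length and are compared here only between states, went from 1.9% (1.4 to 2.4% by library) to 19.2% (16.6 and 21.8%), and that of Col4a5 and Col4a6 from 94.7% to 78.4%. The mean share of Col4a1 and Col4a2 also went from 7.6% to 22.4% in sphincter 2 and from 5.7% to 13.7% in sphincter 1. In both the libraries did not overlap. This share was higher in dilated than in untreated nuclei of every type but iris PE (6.0% and 6.4%).

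**Figure D2:**
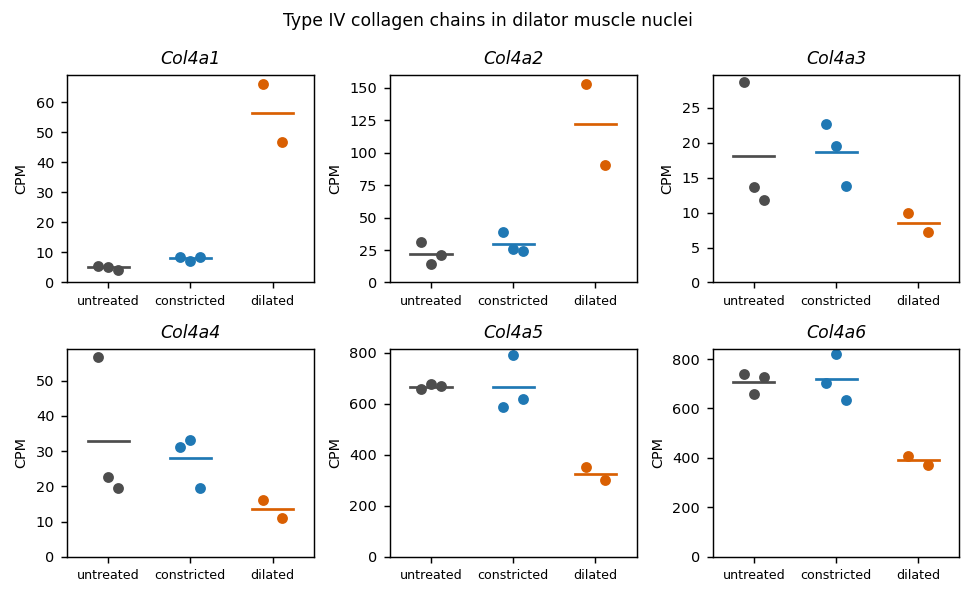
Level (CPM, linear axes from 0) of the 6 type IV collagen genes in dilator muscle nuclei; each point is a library and each line the mean of its state (3 untreated, 3 constricted, 2 dilated). Col4a1 and Col4a2 were highest in both dilated libraries, and Col4a5 and Col4a6 lowest.

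More dilator nuclei carried a molecule of these genes. Col4a1 was counted in 69 of 4357 untreated dilator nuclei (1.58%) and 631 of 3873 dilated ones (16.3%), and Col4a2 in 6.08% and 33.2%. After every nucleus was thinned to 1000 UMIs the shares were 0.369% and 4.86% for Col4a1 and 1.96% and 11.3% for Col4a2. In iris PE, which lies beside the dilator in the same libraries, the unthinned Col4a1 share was 5.35% untreated and 5.37% dilated. In leukocytes, which should lack the gene, it was 1.04% and 2.94%, on 0, 4 and 0 UMIs untreated and 4 and 1 dilated. These counts are too few to set a background, and 8.53% of leukocyte nuclei were called doublets. The endothelial marker list summed to 13.9 to 28.1 CPM in untreated and 17.8 to 28.9 CPM in dilated dilator nuclei, with no marker at 0 in either. The part of endothelial transcripts in the Col4a1 result was not tested. The dilator's own markers went from 3177 to 3360 CPM untreated to 1998 and 2450 CPM dilated. The part of that in the collagen results was not tested.

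The other 4 calls in dilator muscle were Col11a1, Col16a1, Col5a2 and Col6a6. Col11a1 was at 43.0, 27.7 and 39.7 CPM untreated, 67.8, 86.0 and 82.2 CPM constricted and 9.58 and 10.0 CPM dilated, and fell by 1.70 ± 0.22 (log2; adjusted p = 3.98e-04) with no overlap. Col16a1, a FACIT, was at 18.7, 17.5 and 19.0 CPM untreated, 20.9, 15.5 and 16.1 CPM constricted and 38.1 and 29.1 CPM dilated and rose by 1.05 ± 0.18 (adjusted p = 0.00219). Col5a2 was at 23.7, 18.0 and 22.8 CPM untreated, 19.7, 21.3 and 18.0 CPM constricted and 12.6 and 9.02 CPM dilated and fell by 0.78 ± 0.21 (adjusted p = 0.0259). Without dilated 1, dilated 2 or untreated 3 its adjusted p was 0.0568, 0.187 and 0.129. Col6a6, of the beaded filament class, was at 4.36, 5.63 and 5.54 CPM untreated, 5.42, 3.55 and 4.97 CPM constricted and 1.28 and 1.20 CPM dilated, the last on 13 and 6 UMIs, and fell by 1.92 ± 0.40 (adjusted p = 0.00658; 0.0693 without dilated 1).

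Stroma 2 gave a different set. Col8a1 was at 64.1, 76.6 and 67.9 CPM untreated, 110, 139 and 115 CPM constricted and 412 and 308 CPM dilated. It rose by 2.40 ± 0.18 (log2; adjusted p = 9.80e-05), 5.26-fold, and no state overlapped another. Col12a1, a FACIT of tissues under load, was at 120, 86.6 and 91.4 CPM untreated, 246, 252 and 354 CPM constricted and 235 and 248 CPM dilated. It rose with dilation by 1.35 ± 0.20 (adjusted p = 0.00763), and missed the threshold without untreated 2 (0.0618) or untreated 3 (0.0689). Both drug states lay above the untreated libraries.

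Col4a3 and Col4a4 rose in stroma 2, by 1.61 ± 0.24 (adjusted p = 0.00763) and 1.20 ± 0.23 (0.0234). Col4a3 was at 43.5, 34.1 and 26.3 CPM untreated, 58.9, 48.4 and 55.1 CPM constricted and 125 and 70.7 CPM dilated. Col4a4 was at 29.0, 33.5 and 34.0 CPM untreated, 56.6, 29.1 and 45.9 CPM constricted and 83.5 and 61.9 CPM dilated. Without dilated 1 the changes were 1.19 (adjusted p = 0.051) and 1.01 (0.147). Without untreated 2 the adjusted p was 0.0535 for Col4a3 and 0.122 for Col4a4, without untreated 3 it was 0.0698 and 0.138, and without untreated 1 that of Col4a4 was 0.0552. Col26a1 was at 144, 102 and 103 CPM untreated and 47.4 and 23.9 CPM dilated and fell by 1.60 ± 0.33 (adjusted p = 0.0308). Its constricted libraries, at 61.1, 43.1 and 23.6 CPM, were also below the untreated ones. Its adjusted p was 0.0738, 0.101, 0.117, 0.0666 and 0.136 without untreated 1, untreated 2, untreated 3, constricted 2 and dilated 2. The endothelial marker list in stroma 2 summed to 191 to 250 CPM untreated and 573 and 787 CPM dilated. Of its 4 genes, Cldn5 was at 99.1 to 132 CPM untreated and 373 and 631 CPM dilated, and Flt1 at 43.6 to 104 CPM untreated and 172 and 126 CPM dilated, both without overlap. Pecam1 was at 14.4 to 45.9 CPM untreated and 26.7 and 30.4 CPM dilated, and Cdh5, which defines endothelium, at 0.3 to 1.2 CPM untreated and 1.6 and 0 CPM dilated. The part of these genes in the stroma 2 results was not tested.

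**Figure D3:**
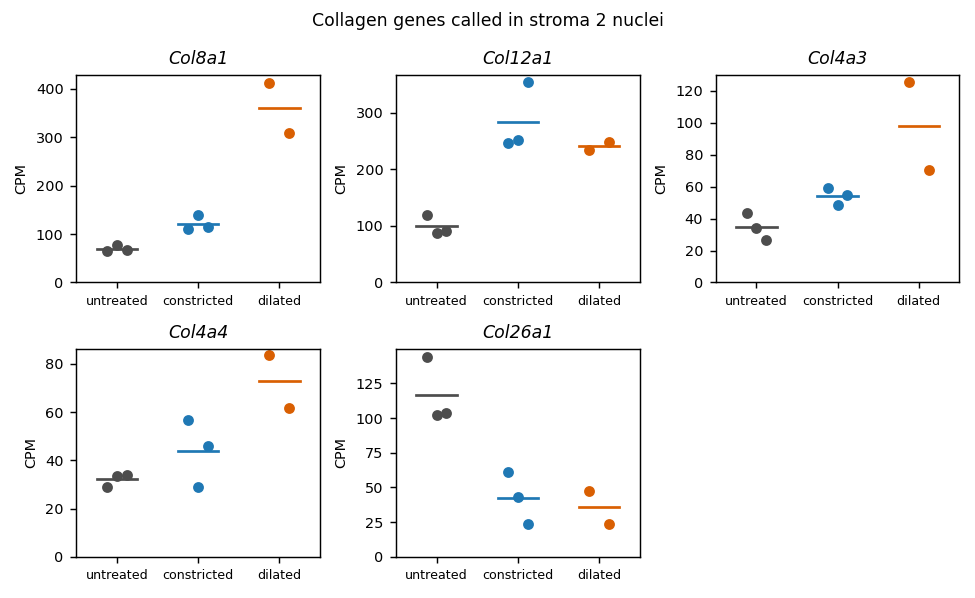
Level (CPM, linear axes from 0) of the 5 collagen genes called in stroma 2 nuclei with dilation; each point is a library and each line the mean of its state. Col8a1 was highest in the dilated libraries, and Col12a1 was raised and Col26a1 lowered in both drug states.

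In sphincter 2, Col4a1 and Col4a2 rose as well, by 1.59 ± 0.44 (log2; adjusted p = 0.0415) and 1.60 ± 0.35 (0.00782). Col4a1 was at 36.6, 16.6 and 20.8 CPM untreated, 35.7, 21.7 and 21.1 CPM constricted and 63.0 and 57.9 CPM dilated, on 3 to 17 UMIs a library. Col4a2 was at 64.1, 33.3 and 43.0 CPM untreated, 136, 108 and 54.9 CPM constricted and 159 and 85.2 CPM dilated, so that its constricted libraries overlapped both other states. Without dilated 1, dilated 2, untreated 2 or untreated 3 the adjusted p of Col4a1 was 0.163, 0.294, 0.265 and 0.249, and it was 0.0536 with the library series as a block and 0.0597 with no filter on low counts. That of Col4a2 was 0.215, 0.0967 and 0.0786 without dilated 1, untreated 2 and untreated 3. Col25a1 was at 293, 356 and 317 CPM untreated, 383, 368 and 291 CPM constricted and 152 and 136 CPM dilated, and fell by 1.10 ± 0.24 (adjusted p = 0.00757; 0.118 without dilated 2 and 0.0664 without untreated 2).

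In sphincter 1, Col4a6 was at 1586, 1024 and 1059 CPM untreated, 1629, 2706 and 1486 CPM constricted and 483 and 531 CPM dilated, and fell by 1.21 ± 0.26 (log2; adjusted p = 0.0151). Its adjusted p was 0.0641, 0.0639, 0.166 and 0.0977 without untreated 1, untreated 3, dilated 1 and dilated 2. Col8a1 was at 10.7, 39.9 and 22.6 CPM untreated, 19.7, 24.2 and 36.5 CPM constricted and 84.5 and 64.6 CPM dilated, on 2 to 31 UMIs, and rose by 1.47 ± 0.36 (adjusted p = 0.034). Its adjusted p was 0.0606, 0.312, 0.258 and 0.121 without untreated 1, untreated 3, dilated 1 and dilated 2. In stroma 1, Col4a5 fell by 1.51 ± 0.34 (adjusted p = 0.0321), from 55.6, 37.3 and 48.1 CPM to 15.3 and 16.7 CPM, with 48.0, 28.4 and 28.9 CPM constricted, and missed the threshold without dilated 1 (0.238), dilated 2 (0.159), untreated 2 (0.0536) or untreated 3 (0.17). In iris PE, Col11a1 was at 86.1, 81.2 and 84.8 CPM untreated, 129, 154 and 113 CPM constricted and 34.1 and 29.1 CPM dilated, and fell by 1.36 ± 0.18 (adjusted p = 0.00384; 0.0538 without dilated 2).

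**Figure D4:**
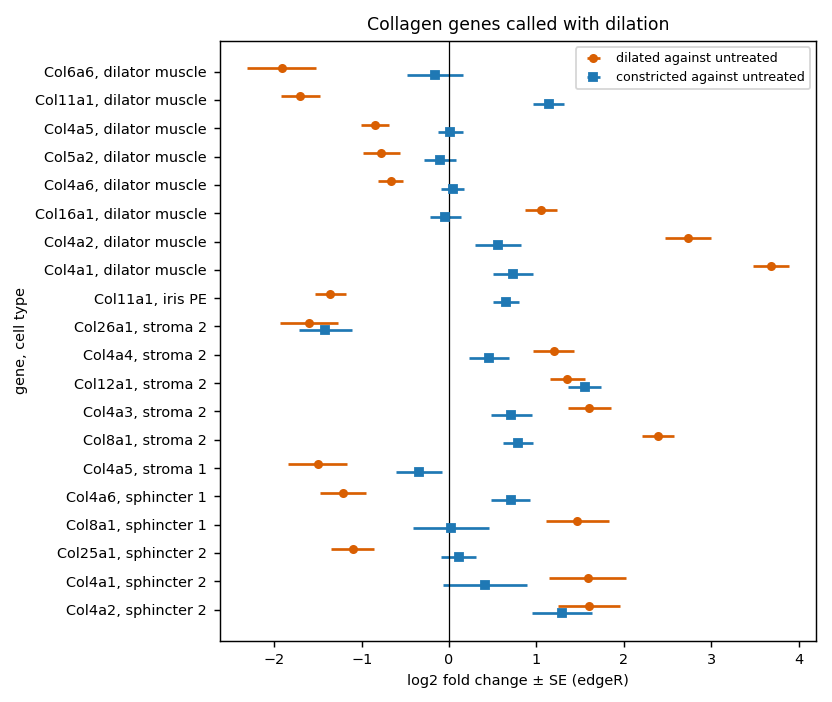
Log2 fold change ± SE (edgeR) of the 20 pairs of collagen gene and cell type called with dilation, for dilated against untreated (circles) and for constricted against untreated (squares). Both comparisons share the 3 untreated libraries. Col4a1 in dilator muscle lay at 3.68 with dilation and 0.73 with constriction, and Col12a1 in stroma 2 at 1.35 and 1.55.

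The upstream bases of Col8a1 and Col11a1, the genes with calls in the most cell types outside type IV, are given with the same 6 motifs in capitals. Col8a1 held 4 GC boxes and 1 EGR motif, and Col11a1 held 2 GC boxes and 1 CCAAT box.
Col8a1 upstream, chr16:57754738-57754987, minus strand: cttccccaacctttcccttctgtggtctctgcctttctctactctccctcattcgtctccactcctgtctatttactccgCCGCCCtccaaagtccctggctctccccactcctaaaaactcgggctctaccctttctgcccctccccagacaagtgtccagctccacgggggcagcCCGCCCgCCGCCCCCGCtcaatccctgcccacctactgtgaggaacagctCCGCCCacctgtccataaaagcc
Col11a1 upstream, chr3:114030290-114030539, plus strand: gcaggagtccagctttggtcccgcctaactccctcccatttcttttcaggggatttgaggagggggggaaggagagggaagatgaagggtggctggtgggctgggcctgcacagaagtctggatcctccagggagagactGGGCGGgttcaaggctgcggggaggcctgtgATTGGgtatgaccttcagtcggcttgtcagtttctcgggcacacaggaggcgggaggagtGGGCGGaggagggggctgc

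Constriction called 1 of the same 170 pairs, where 0.0118% of all gene and cell type pairs were called. It was Col12a1 in stroma 2 (0.0156% of genes called there), which rose by 1.55 ± 0.19 (log2; adjusted p = 0.0149), and missed the threshold without constricted 2 (0.0537), untreated 2 (0.253) or untreated 3 (0.238). At an unadjusted p under 0.05 there were 36 pairs, given here with all genes in parentheses. They were 7 of 37 in dilator muscle (630 of 15395), 3 of 29 in iris PE (617 of 14128) and 8 of 35 in stroma 2 (676 of 12788). Stroma 1 had 1 of 14 (444 of 8911), sphincter 1 had 2 of 12 (451 of 7112) and sphincter 2 had 6 of 11 (397 of 6691). CBE had 2 of 14 (554 of 8166), CB 3 of 9 (386 of 7522), leukocytes 2 of 3 (167 of 3027) and endothelial cells 2 of 6 (146 of 1352). Among the pairs not called, Col11a1 in dilator muscle had a log2 fold change of 1.14 ± 0.18 (adjusted p = 0.119), against the fall of 1.70 with dilation.

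Dilated against constricted nuclei, which share the dilated libraries with the first comparison, called 16 of 170 pairs, 5 higher and 11 lower, where 2.65% of all pairs were called. In dilator muscle 7 of 37 were called (background 10.5%). In stroma 2 it was 1 of 35 (0.532%), in iris PE 1 of 29 (0.672%), in sphincter 1 3 of 12 (3.7%) and in sphincter 2 4 of 11 (2.45%). Col11a1 was lower in dilated than in constricted nuclei by -2.84 ± 0.23 in dilator muscle (adjusted p = 1.93e-05), -2.01 ± 0.18 in iris PE (1.32e-04) and -2.52 ± 0.41 in sphincter 2 (3.89e-04). In sphincter 1 it was higher by 2.97 ± 0.66 (adjusted p = 0.0101), on 4, 0 and 2 UMIs in the constricted and 35 and 14 UMIs in the dilated libraries. That call could be checked in only 11 alternatives, where most calls had 15. Col4a5 and Col4a6 were lower in both sphincter types as well as in dilator muscle, and Col4a6 in sphincter 1 differed by -1.92 ± 0.27 (adjusted p = 1.53e-04). In sphincter 2 both missed the threshold without dilated 2 (adjusted p = 0.0976 for each). In sphincter 1 the adjusted p of Col4a5 was 0.277, 0.115, 0.113, 0.0515 and 0.0723 without dilated 1, dilated 2, constricted 2, untreated 2 and untreated 3. In dilator muscle that of Col4a6 was 0.0527 without dilated 1 and 0.05 without dilated 2, and with the library series as a block its log2 fold change of -0.60 fell just short of the fold threshold. That of Col6a6 was 0.111 and 0.0729. Col25a1 in sphincter 2 missed it without dilated 2 (0.0645).

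Whether the dilation effect of a gene differed between dilator muscle and another cell type was tested directly, for the collagen genes called in either type. Of 73 such pairs of gene and other type, 36 differed at an adjusted p under 0.05. By type they were 10 of 13 against stroma 2 (8.13% of all genes differed), 5 of 8 against iris PE (12.2%), 5 of 8 against CBE (4.18%), 5 of 7 against CB (3.06%) and 4 of 8 against sphincter 1 (6.71%). They were 3 of 7 against stroma 1 (5.73%), 2 of 8 against sphincter 2 (2.1%), 2 of 7 against endothelial cells (0.528%) and 0 of 7 against leukocytes (0.746%). Since these pairs were chosen by a call in one of the types and the shares in parentheses cover all genes, nothing is read from that contrast. On the log2 scale the rise of Col4a1 was larger in dilator muscle than in each of the other types but leukocytes, for instance by 3.73 ± 0.34 than in iris PE. In the separate fit of CBE, Col4a1 did not pass the filter on low counts. The rise in dilator muscle started from 5.03 CPM, the lowest untreated level, against 85.9 CPM in stroma 2 and 203 CPM in endothelial cells. Against sphincter 2 the difference of Col4a1, 2.08 ± 0.47, had an adjusted p of 0.0996 without dilated 1 and 0.144 without untreated 3, and against CBE it was 2.22 (0.178) without untreated 1. The rise of Col8a1 in stroma 2 exceeded its change in dilator muscle by 2.47 ± 0.17.

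Enzymes that modify, cut and crosslink collagen, chaperones and receptors were followed as a list of 47 genes. With dilation 6 rose and 4 fell of the 38 tested in dilator muscle (13.3% of all genes were called), 2 fell of 24 in sphincter 1 (1.95%), 1 rose of 19 in sphincter 2 (2.87%) and 1 rose of 38 in stroma 2 (1.73%). None of the list was called in the other 6 types, or with constriction. In dilator muscle Creb3l1, a transcription factor of the secretory pathway, rose by 2.07 ± 0.52 (log2; adjusted p = 0.0197), from 1.12 to 4.07 CPM. Pxdn, the peroxidase that crosslinks type IV collagen, fell by 1.58 ± 0.15 (adjusted p = 4.93e-05), from 62.9 to 18.4 CPM. P3h2, a prolyl 3-hydroxylase, rose by 1.56 ± 0.41 (adjusted p = 0.0233), from 5.21 to 11.5 CPM. Colgalt2, a galactosyltransferase of collagen, fell by 1.52 ± 0.25 (adjusted p = 0.00147). In sphincter 1 Itga10, a collagen-binding integrin chain, fell by 2.71 ± 0.59 (adjusted p = 0.0146) and Colgalt2 by 1.37 ± 0.32 (0.022). In sphincter 2 Itgb1, the shared beta chain of the collagen-binding integrins, rose by 1.00 ± 0.22 (adjusted p = 0.00802). Itgb1 also rose in dilator muscle, by 1.41 ± 0.22 (adjusted p = 0.00103), from 134 to 308 CPM, after the 4 largest changes there. In stroma 2 P3h2 rose by 1.35 ± 0.22 (adjusted p = 0.0115). Against constricted nuclei, 2 were higher and 5 lower of 38 in dilator muscle (background 10.5%), and 4 lower of 24 in sphincter 1 (3.7%). In sphincter 1 these were Itga10 (-3.36 ± 0.59), Itga2 (-1.89 ± 0.50), Colgalt2 (-1.72 ± 0.33) and P3h2 (-1.21 ± 0.29). In dilator muscle the largest were Pxdn (-1.85 ± 0.15), Colgalt2 (-1.32 ± 0.25), Itgb1 (1.08 ± 0.22) and Adamts2 (-0.97 ± 0.19). Calls of this list were not rerun under the alternatives.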

How the data were processed

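Nuclei were pooled from irises and sequenced with 3′ droplet chemistry. The authors aligned reads, introns included, to mm10 with Cell Ranger 3.1.0, filtered and named nuclei with Seurat, and deposited raw UMI counts per gene and nucleus, unnormalized, with a cell type for each nucleus. The study gives limits of 500 and 6000 transcripts per nucleus; in the deposited counts these hold for genes detected (500 to 5956), not for UMIs (633 to 20495). Collagen genes, gene lists and tests were chosen with earlier results of these data known.

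UMIs of all nuclei of a cell type in a library were added up (at least 10 nuclei each), and levels are CPM of these sums with the SD over libraries. Each cell type was fitted over all 8 libraries with edgeR 4.0.16 (R 4.3.3), TMM scaling, a filter on low counts and the quasi-likelihood test, and differences between cell types by an interaction term. The scripts were tested on simulated data. Genes were named if called in any comparison, if among the 3 highest per kb of a cell type, if at 50 CPM or more in a type, or, for the enzyme and receptor list, if among the 4 largest called changes of a type. Labels mark libraries as separate samples, so p-values measure the spread between libraries. The methods give 5 preparation batches and do not say which library was in which. Doublets were called with Scrublet (341 nuclei, 0.993%; in constricted 2 its automatic threshold marked 1) and kept in the reported values. Alternatives were other scalings, DESeq2 1.42.0, no filter, blocks for replicate number or library series, leaving out each library, doublets or shared barcodes (the last chosen after seeing the data). The library series was set here from the library numbers (2 to 4, 13, and 15 to 18). It is not a batch that the labels or the study name.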

Additional observations from a re-analysis of the deposited data

Results flagged for a closer look

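The change with dilation differed between dilator muscle and another cell type, by an interaction term at an adjusted p under 0.05, for 36 pairs of collagen gene and cell type. Values are the log2 change in dilator muscle minus that in the other type, and all of these fits share the dilator libraries. For Col11a1 the difference was -2.11 against CB, -1.53 against CBE, -3.29 against sphincter 1 and -1.59 against stroma 2. In the separate fit of CB, Col11a1 did not pass the filter on low counts, with 3, 5 and 1 UMIs untreated and 17 and 3 dilated. For Col12a1 the difference was -1.25 against stroma 2. For Col16a1 the difference was 1.26 against iris PE. For Col26a1 the difference was 1.62 against stroma 2. For Col4a1 the difference was 2.81 against CB, 3.11 against CBE, 2.92 against endothelial cells, 3.73 against iris PE, 3.04 against sphincter 1, 2.08 against sphincter 2, 3.77 against stroma 1 and 2.68 against stroma 2. In the separate fit of CBE, Col4a1 did not pass that filter, with 8, 3 and 2 UMIs untreated and 33 and 4 dilated. For Col4a2 the difference was 2.82 against CB, 2.29 against CBE, 1.79 against endothelial cells, 2.98 against iris PE, 2.38 against sphincter 1, 1.18 against sphincter 2, 2.46 against stroma 1 and 2.01 against stroma 2. For Col4a3 the difference was -2.32 against stroma 2. For Col4a4 the difference was -1.95 against stroma 2. For Col4a5 the difference was -0.68 against CB, -0.71 against CBE, -0.62 against iris PE and -0.96 against stroma 2. For Col4a6 the difference was -0.72 against CB, -0.76 against CBE, -0.54 against iris PE and -0.83 against stroma 2. For Col5a2 the difference was -0.88 against stroma 1. For Col8a1 the difference was -1.56 against sphincter 1 and -2.47 against stroma 2. Of the 36 differences, 22 passed the threshold in every alternative run, and the others missed it when 1 library was left out. Against stroma 2, Col26a1 missed it without dilated 1 (0.16, from 1.62; adjusted p = 0.994), untreated 2 (0.228), untreated 3 (0.0851) or constricted 3 (0.0566), and Col11a1 without dilated 1 (-0.71, from -1.59; 0.473). Against sphincter 2, Col4a1 missed it without dilated 1 (0.0996) or untreated 3 (0.144), and Col4a2 without dilated 1 (0.117), dilated 2 (0.133), untreated 2 (0.128) or untreated 3 (0.211). Against endothelial cells, Col4a2 missed it without the same libraries (0.0752, 0.117, 0.332 and 0.113). Against CB, Col11a1 missed it without untreated 1 (0.0665), untreated 3 (0.167), dilated 1 (0.551) or dilated 2 (0.0521), and Col4a6 without dilated 2 (0.505), untreated 2 (0.151) or untreated 3 (0.269). Col4a5 against CB missed it without dilated 1 (0.109), dilated 2 (0.282), constricted 2 (0.0582), untreated 2 (0.281) or untreated 3 (0.103). Against CBE, Col4a1 missed it without untreated 1 (0.178), Col4a5 without dilated 1 (0.262) or untreated 2 (0.0532), and Col4a6 without dilated 1 (0.246). Against iris PE, Col4a5 (0.0799) and Col4a6 (0.0585) missed it without dilated 2. Against stroma 1, Col5a2 missed it without dilated 2 (0.528), untreated 2 (0.0581) or untreated 3 (0.133). No state had 4 or more libraries, so single libraries were not tested for standing apart.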

How the results depend on the processing

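Of the 37 calls, 16 held under every alternative that gave a value for them, and none reversed. Most calls had a value in 15 alternatives. Col11a1 in sphincter 1, dilated against constricted, had one in only 11, so it was not checked in the rest. Leaving out 1 library gave 4 to 10 pairs higher and 3 to 10 lower with dilation, 0 to 3 higher and 0 to 1 lower with constriction, and 4 to 6 higher and 5 to 15 lower for dilated against constricted; with 1 dilated library left, it was assumed to vary like the others. Against 10 lower with dilation, the library series as a block gave 16. With constriction, against 1 higher and 0 lower, no filter on low counts gave 5 and 4, DESeq2 2 and 1, and the series block 1 lower. For dilated against constricted, no filter gave 8 higher against 5. The runs with no filter and with DESeq2 took in genes that the filter leaves out, so their counts are not on the base of 170 pairs. Shares over all genes are not given for the alternatives, so nothing is read from their call counts. The labels do not say that same-numbered libraries belong together. In dilator muscle the deviations of 5 of the 7 same-numbered pairs correlated from 0.17 to 0.53. Those of constricted 2 with dilated 2 and untreated 2 correlated by -0.01 and 0.0044, so not every pair was over 0.1. The differently numbered pairs ran from -0.53 to 0.51, so the numbers did not set the pairs apart. The library series did. Pairs within libraries 2 to 4 correlated from 0.21 to 0.53 and pairs within 15 to 18 from 0.17 to 0.51. Pairs between these 2 series ran from -0.53 to -0.16, and the signs were the same in iris PE and stroma 2. Each of these series held every state. With 2 dilated libraries their deviations mirror each other, so these values are not independent. The reported fit has no replicate block and no series block. With the replicate number as a block the calls were 9 higher and 15 lower with dilation, 3 higher and 2 lower with constriction, and 6 higher and 17 lower for dilated against constricted. Col4a1 in sphincter 2 and Col8a1 in sphincter 1 were no longer called under that block (adjusted p = 0.147 and 0.0856), and Col4a5 in stroma 1 was not called by DESeq2 (0.0892). The count of genes highest in stroma 2 was 17 to 18 when a library was left out. In the order of cell types, the log2 ratio of endothelial cells to stroma 2 for Col15a1 ran from -0.093 (without untreated 3) to 0.55 (without untreated 1), and that of CBE to stroma 2 for Col23a1 from -0.14 (without untreated 1) to 0.27 (without untreated 3). The cause of these changes was not tested. Only 2 dilated libraries and few endothelial, leukocyte and sphincter nuclei limit what could be detected.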
